A study of Mus musculus with 6 samples.

Results

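The 10 genes described here belong to the sensing of bacteria and to inflammasomes, and were chosen by name from the 54532 genes listed for each library, namely Naip2, Naip5, Naip6, Nlrc4, Nod1, Nod2, Nlrp3, Pycard, Casp1 and Pglyrp1. All 10 had enough reads to be tested. RNA was measured in cDC1s, the dendritic cells specialised in cross-presentation to CD8 T cells, grown from mouse bone marrow for 8 days with FLT3L at 80 ng/mL and sorted as CD24+ CD11c+ B220- CD115- CD172a-. Of 6 libraries, 3 came from c-Jun/JunB fl/fl mice (fl/fl) and 3 from c-Jun/JunB fl/fl Itgax-Cre mice (Δ/Δ), in which Cre under the Itgax (CD11c) promoter removes both AP-1 genes from CD11c-expressing cells, so that deletion begins only once Itgax is active. Per the study's methods, its mice were adults of both sexes on a mixed 129 Sv × C57BL/6 background. The methods do not state the sex of the donors of these cultures. The labels do not say whether the cultures of a genotype came from separate animals, while a legend in the study's supplement describes the samples of this experiment as individual mice.

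NOD1 and NOD2 bind fragments of bacterial peptidoglycan in the cytosol and signal through RIPK2 to NF-kB. NAIP proteins bind flagellin or parts of bacterial type III secretion systems and then recruit NLRC4 into an inflammasome, while NLRP3 responds to a wide range of cell stress through the adaptor ASC, the product of Pycard. Both kinds of inflammasome activate caspase-1, which matures IL-1β and IL-18 and cleaves gasdermin D. PGLYRP1 is a secreted protein that binds peptidoglycan outside the cell.

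The Naip genes are neighbouring paralogs, and how alike they are bears on which reads could be assigned to them. Naip2 (chr13:100144063-100202092), Naip5 (chr13:100211739-100246323) and Naip6 (chr13:100281121-100317674) lie on the minus strand of GRCm38 in 1 cluster with Naip1 and the pseudogenes Naip3 and Naip3-ps1. In GENCODE M21 the coding sequences of Naip5 and Naip6 were 97.0% identical, those of Naip2 and Naip5 90.0%, and those of Naip2 and Naip6 89.8%. The stretch of 75 coding bases below, of the length of 1 sequenced read, covers coding bases 103 to 177 of each gene and was chosen as the first one without gaps whose number of differing positions is nearest to the mean. Capitals mark the 9 positions at which the 3 genes are not all alike.
Naip2: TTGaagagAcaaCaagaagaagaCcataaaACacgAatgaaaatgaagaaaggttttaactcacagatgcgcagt
Naip5: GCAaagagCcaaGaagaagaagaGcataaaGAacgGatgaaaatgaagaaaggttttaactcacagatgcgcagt
Naip6: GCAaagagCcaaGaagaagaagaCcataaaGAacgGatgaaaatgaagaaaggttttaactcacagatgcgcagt
Within this stretch Naip5 and Naip6 differed at 1 base, Naip2 and Naip6 at 8 and Naip2 and Naip5 at 9. Of all 75-base stretches in a gene's transcripts, 10.7% in Naip2, 23.8% in Naip5 and 11.97% in Naip6 also occurred in transcripts of another gene. Those of Nlrc4, Nod1, Nod2, Nlrp3 and Casp1 occurred in no other gene. Of those of Pglyrp1, 1.31% were shared with other genes, and Pycard is described below. Reads were sequenced in pairs, and how often both reads of a pair fall in shared stretches was not counted. The reference is of C57BL/6J, and the part of the mixed 129 Sv background in the Naip values was not tested.

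The promoters of the 3 members that were higher in Δ/Δ libraries are shown next, since the deleted proteins are DNA-binding AP-1 subunits. Each window, from RefSeq on GRCm38.p6, runs from 250 bases before to 50 bases after the start of transcription, on the strand of the gene. Nod2 is on the plus strand (chr8:88647097-88647396), Nlrc4 on the minus strand (chr17:74459059-74459358) and Pglyrp1 on the plus strand (chr7:18884440-18884739). Capitals mark a match to an NF-kB motif.
Nod2: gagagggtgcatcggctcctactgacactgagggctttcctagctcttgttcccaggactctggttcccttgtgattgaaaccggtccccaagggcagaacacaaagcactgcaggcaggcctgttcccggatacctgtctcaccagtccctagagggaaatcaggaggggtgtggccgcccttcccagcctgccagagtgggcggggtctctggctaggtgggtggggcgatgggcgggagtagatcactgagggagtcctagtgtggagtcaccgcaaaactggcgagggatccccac
Nlrc4: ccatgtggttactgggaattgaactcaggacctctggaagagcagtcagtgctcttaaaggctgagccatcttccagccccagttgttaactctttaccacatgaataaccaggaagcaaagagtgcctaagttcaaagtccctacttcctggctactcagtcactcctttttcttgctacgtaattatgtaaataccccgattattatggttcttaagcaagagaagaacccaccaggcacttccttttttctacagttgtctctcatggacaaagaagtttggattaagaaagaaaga
Pglyrp1: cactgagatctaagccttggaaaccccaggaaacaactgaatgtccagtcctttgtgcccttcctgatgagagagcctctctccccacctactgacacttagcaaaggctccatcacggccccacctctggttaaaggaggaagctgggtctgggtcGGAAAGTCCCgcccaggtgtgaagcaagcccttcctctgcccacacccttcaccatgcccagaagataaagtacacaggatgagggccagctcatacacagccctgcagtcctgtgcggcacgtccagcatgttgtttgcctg
All 10 members matched the promoter table, with 12 windows. Both strands were searched for TGANTCA (AP-1), TGACGTCA (CRE), an NF-kB motif of 10 letters and an ISRE motif of 10 letters, which is bound by interferon regulatory factors. The AP-1 letters were in 0 of the 12 windows and in 7.81% of the 32851 windows of the table. The CRE letters (1.79% of all windows) and the ISRE motif (3.44%) were in 0 of the 12 as well. The NF-kB motif was in 1 of the 12, the Pglyrp1 window, beginning 93 bases before the start, and in 1.63% of all windows. A missing match says only that these letters are not in these windows.

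Of the 10 members, 5 passed the test, edgeR's quasi-likelihood test with an adjusted p under 0.05 over 12894 genes, where 3.88% of all tested genes did. The members were chosen with earlier results of these data known. Shares of all tested genes are therefore given for scale, and an excess of the members over them was not tested. Nod2, Nlrc4 and Pglyrp1 were higher in Δ/Δ libraries (2.03% of all tested genes passed in this direction), and Naip2 and Naip5 were lower (1.85% of all). With a log2 fold change of at least 1 also required, 4 were called, against 1.86% of all tested genes. Only Naip2 and Naip5, 2 members, passed without fl/fl 1 and without fl/fl 2, where the share of all tested genes is not given here. The called genes were the 3 higher members (0.993% of all called higher) and Naip5 (0.869% of all called lower). In 6 of the 10 the 3 libraries of a genotype all lay above the 3 of the other, against 26.0% of all tested genes. The median log2 fold change of the 10 was 0.02 and that of all tested genes 0.00.

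**Figure D1:**
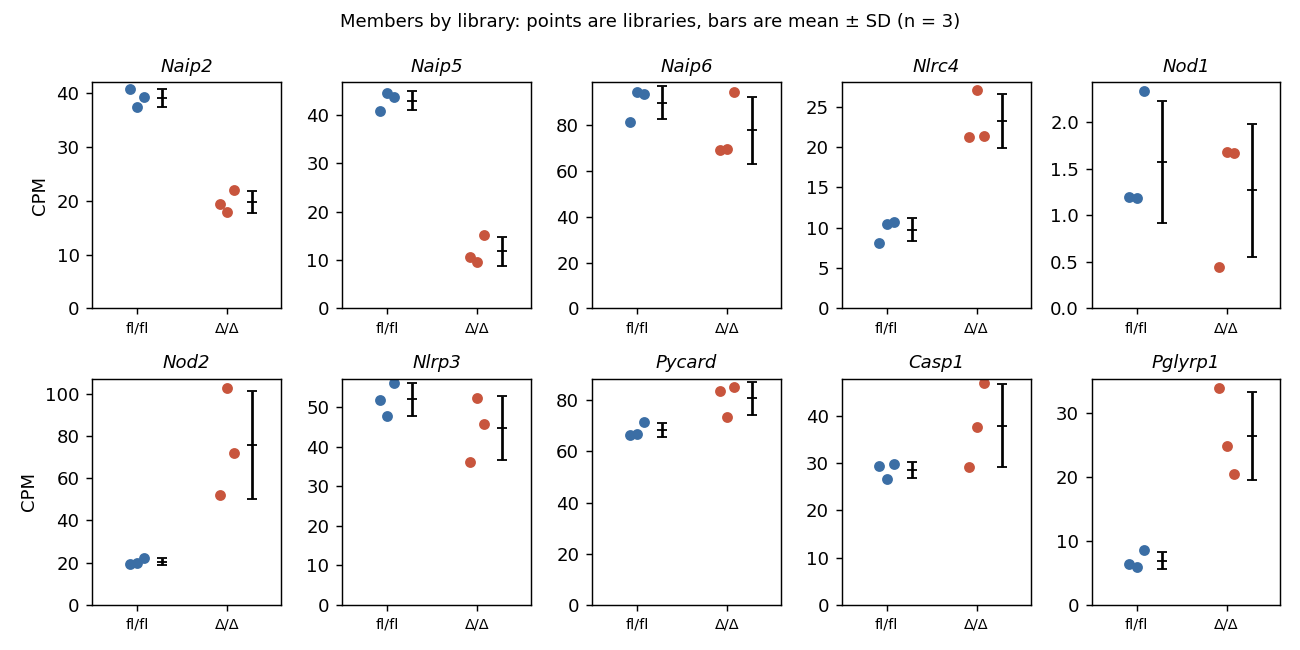
Level of each member in each library in CPM (read counts scaled to the TMM-adjusted library size), with points for the 3 fl/fl and 3 Δ/Δ libraries in order of replicate and bars for the mean ± SD. The groups do not overlap for Naip2, Naip5, Nlrc4, Nod2, Pycard and Pglyrp1.

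Of the 3 Naip members, Naip5 had the largest change. Levels are given in CPM, read counts scaled to the library size with TMM factors. Naip5, which binds flagellin, stood at 40.7, 44.5 and 43.6 CPM in the fl/fl libraries and at 10.5, 9.66 and 15.1 CPM in the Δ/Δ libraries. Every Δ/Δ library was below every fl/fl library. Its level fell by 1.87 on the log2 scale (SE 0.17, adjusted p = 0.00346, edgeR's quasi-likelihood test), from 42.9 ± 1.96 to 11.8 ± 2.92 CPM (SD, n = 3 each).

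Naip2, which binds the rod protein of type III secretion systems, was at 40.8, 37.4 and 39.4 CPM in fl/fl and at 19.4, 17.9 and 22.0 CPM in Δ/Δ libraries. The groups did not overlap. Naip2 fell by 0.99 on the log2 scale (SE 0.10, adjusted p = 0.00426, edgeR), just short of the fold needed for a call, which it reached under 2 of 12 alternatives, without fl/fl 2 or Δ/Δ 3. Naip6, a flagellin receptor like Naip5, was at 81.3, 94.2 and 93.5 CPM in fl/fl and at 68.9, 69.7 and 94.4 CPM in Δ/Δ libraries. Δ/Δ 3 was as high as the fl/fl libraries, and the log2 difference of -0.21 (SE 0.13) did not pass the test (adjusted p = 0.441, edgeR).

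The remaining genes of the cluster had few reads. The pseudogene Naip3-ps1 was at 1.85, 1.97 and 1.53 CPM in fl/fl and 0.162, 0.280 and 0.352 CPM in Δ/Δ libraries, with a log2 fold change of -2.74 (SE 0.37, adjusted p = 0.0126, edgeR). Without fl/fl 1 or fl/fl 2 the adjusted p was 0.0849 and 0.0836. Naip1 and the pseudogene Naip3 had 0 reads in the 3 fl/fl libraries. In the Δ/Δ libraries Naip1 had 17, 13 and 9 reads and Naip3 had 8, 14 and 31. Both were too low to be tested. The Δ/Δ mean was 14.4 times (Naip1) and 19.9 times (Naip3) a floor of 3 reads pooled over the fl/fl libraries (0.0392 CPM). The spread of the Δ/Δ libraries is not part of these values. Rows of the same cluster thus differed in opposite directions, and of the 75-base stretches 20.5% in Naip1, 38.3% in Naip3 and 43.3% in Naip3-ps1 were shared with other genes. How much of this comes from the assignment of reads between copies was not tested.

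The counted reads of the 6 genes were also summed, which does not depend on how counted reads were split among them but cannot restore reads that mapped to several copies and were not counted. The sum was at 165, 178 and 178 CPM in fl/fl and at 99.97, 98.8 and 134 CPM in Δ/Δ libraries. All 3 Δ/Δ libraries were lower, by a log2 fold change of -0.65 (SE 0.12, adjusted p = 0.0351, edgeR, in a table where 3.9% of rows passed). Without fl/fl 1, fl/fl 2, fl/fl 3 or Δ/Δ 2 the adjusted p was 0.134, 0.163, 0.122 and 0.0511. Naip6 held 49.4 to 52.9% of the summed CPM in fl/fl and 68.9 to 70.6% in Δ/Δ libraries, and Naip5 held 24.5 to 25.0% and 9.77 to 11.3%. Of 13 tested protein-coding genes within 500000 bases of the cluster 2 passed the test. They are named here after their values were seen, Gtf2h2 with a log2 fold change of 0.57 and Marveld2 with -1.59. The other 11 ranged from -0.88 to 0.22.

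**Figure D2:**
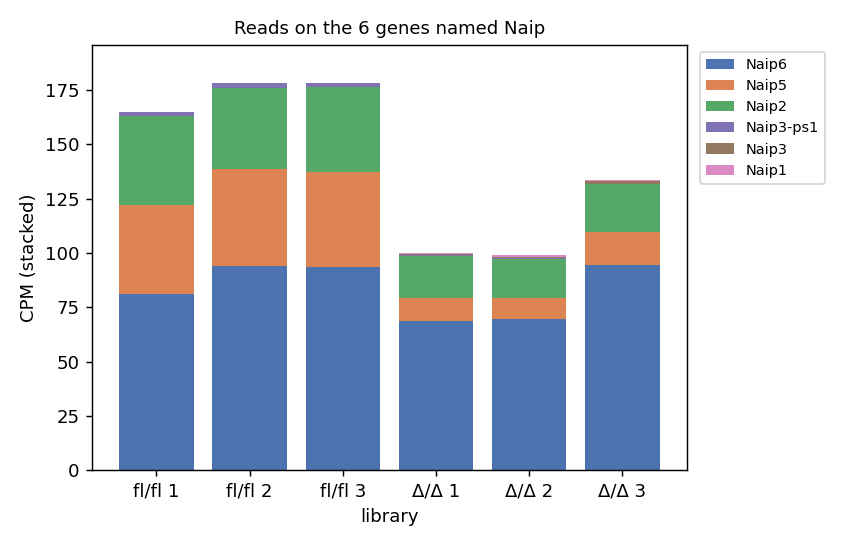
Stacked CPM of the 6 genes named Naip in each library. The Naip5 and Naip2 segments are smaller in all 3 Δ/Δ libraries, and the Naip6 segment of Δ/Δ 3 is as high as in fl/fl.

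Nlrc4, the partner that NAIP proteins recruit, differed in the other direction. It was at 8.10, 10.5 and 10.7 CPM in fl/fl and at 21.2, 27.1 and 21.4 CPM in Δ/Δ libraries, with no overlap. The log2 fold change was 1.25 (SE 0.16, adjusted p = 0.0098, edgeR), and the mean rose from 9.76 ± 1.44 to 23.2 ± 3.33 CPM (SD, n = 3 each). Without fl/fl 1 or fl/fl 2 the adjusted p was 0.052 and 0.0622.

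The 2 NOD receptors differed in level and in change. Nod2 was at 19.6, 19.7 and 22.3 CPM in fl/fl and at 52.1, 103 and 71.8 CPM in Δ/Δ libraries. The Δ/Δ libraries all lay above the fl/fl libraries but were spread over a wide range. Nod2 rose by a log2 fold change of 1.88 (SE 0.23, adjusted p = 0.00879, edgeR), and without fl/fl 1 or fl/fl 2 the adjusted p was 0.0737 in both cases. Nod1 was low, with 31, 32 and 55 reads in fl/fl and 11, 36 and 38 reads in Δ/Δ libraries. Its log2 difference of -0.31 (SE 0.54) did not pass the test (adjusted p = 0.794, edgeR) and turned positive without fl/fl 3 (0.08) or Δ/Δ 1 (0.10), so no difference was detectable at this depth.

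Pglyrp1 was at 6.40, 5.90 and 8.53 CPM in fl/fl and at 34.0, 24.9 and 20.5 CPM in Δ/Δ libraries. The lowest Δ/Δ library was above the highest fl/fl library. The log2 fold change of 1.93 (SE 0.23, adjusted p = 0.00751, edgeR) was within 1 SE of that of Nod2. The adjusted p was 0.0579 without fl/fl 1 and 0.059 without fl/fl 2. Pglyrp1 is also a granule protein of neutrophils. Of 15 neutrophil markers 5 were tested and none passed, and 2 had no read. Of the 5, 4 had log2 differences below 0 and 1 above 0. The most abundant were below 0, S100a9 (-1.10), S100a8 (-0.84) and Ngp (-4.31, adjusted p = 0.0987, edgeR). Csf3r, named after its values were seen, was above 0 (2.16, adjusted p = 0.0782, edgeR). The summed level of the 15 was 5.21 to 23.5 CPM in fl/fl and 3.61 to 12.2 CPM in Δ/Δ libraries. The 2 ranges overlap, and the part of neutrophil RNA in the Pglyrp1 values was not tested.

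Nlrp3, Pycard and Casp1 did not pass the test. Nlrp3 was at 52.0, 47.8 and 56.3 CPM in fl/fl and at 36.2, 52.4 and 45.9 CPM in Δ/Δ libraries, with a log2 difference of -0.22 (SE 0.14, adjusted p = 0.438, edgeR). Pycard was at 66.6, 66.8 and 71.6 CPM in fl/fl and at 83.8, 73.4 and 85.4 CPM in Δ/Δ libraries. Its groups did not overlap, yet the log2 difference of 0.24 (SE 0.08) missed the threshold (adjusted p = 0.139, edgeR). In GENCODE M21 the antisense gene Gm45205 shares 10.9% of the 75-base stretches of Pycard, and no source used here states the strand setting of the counting. Casp1, the protease, was at 29.5, 26.7 and 29.8 CPM in fl/fl and at 29.3, 37.7 and 46.9 CPM in Δ/Δ libraries. Δ/Δ 1 lay within the fl/fl range. The log2 difference of 0.40 (SE 0.17) gave an adjusted p of 0.245 (edgeR), and without Δ/Δ 1 it was 0.56 with an adjusted p of 0.0267.

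**Figure D3:**
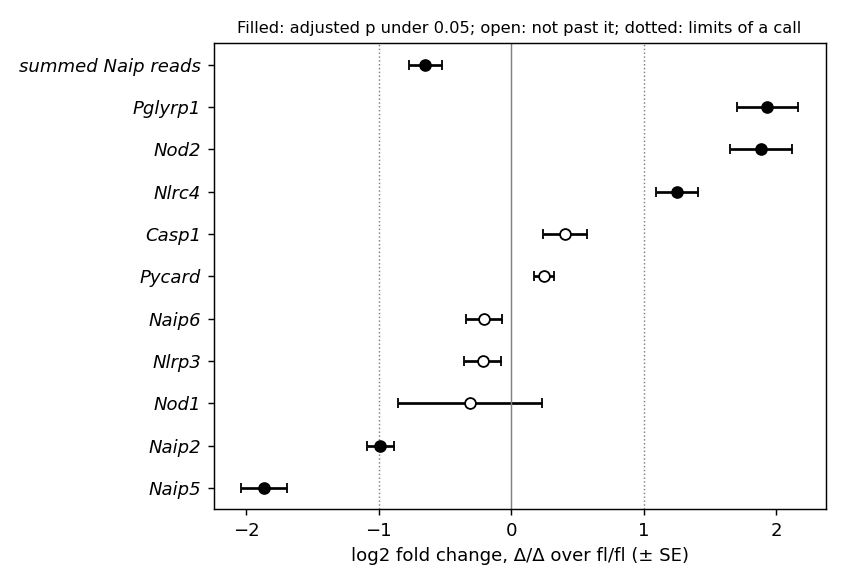
Log2 fold change of Δ/Δ over fl/fl libraries with its standard error for each member and for the summed Naip reads. Filled points passed an adjusted p of 0.05, and Naip2 at -0.99 lies at the dotted limit of a call.

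Compared per kilobase of exon, the levels within the fl/fl libraries ran from Casp1 (19.2 ± 1.13 CPM per kb, SD, n = 3) and Pycard (18.0 ± 0.748) over Naip6 (13.1 ± 1.06) and Nlrp3 (12.8 ± 1.04), Naip5 (8.25 ± 0.376) and Naip2 (8.09 ± 0.351), Nod2 (4.09 ± 0.305) and Pglyrp1 (3.78 ± 0.760) to Nlrc4 (2.03 ± 0.300) and Nod1 (0.309 ± 0.130). Within each of the 4 pairs Casp1 and Pycard, Naip6 and Nlrp3, Naip5 and Naip2, and Nod2 and Pglyrp1, the ranges of the libraries overlapped, and between all other neighbours in this order they did not. In the Δ/Δ libraries Nod2 (15.1 ± 5.11) and Pglyrp1 (14.4 ± 3.75) stood directly below Casp1 and Pycard, and the ranges of each pair of neighbours from Casp1 to Nlrp3 overlapped. Naip5 (2.26 ± 0.562) was below Naip2 (4.08 ± 0.430) without overlap. The length used joins all annotated exons of a gene, 3800 bases for Pycard and 1837 for Pglyrp1, and is not that of 1 transcript. A gene expressed as a shorter transcript is set too low, so the order depends on the annotation. Reads lost because Naip copies share sequence were not allowed for.

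Of 56 tested genes in 4 lists of the surrounding pathways 3 passed the test (5.36%), near the 3.88% of all tested genes. Of 27 genes of NOD signalling 26 were tested, and 1 rose and 1 fell. Slc46a3, a lysosomal transporter linked to muropeptide uptake, was higher (log2 fold change 0.39, adjusted p = 0.0349, edgeR) and Cyld, a deubiquitinase that restrains NF-kB, was lower (-0.37, adjusted p = 0.0315). The median of the 26 was 0.12. Of 20 other NLR genes 6 were tested and 11 had no read. Ciita, the transactivator of MHC class II genes, was higher (0.46, adjusted p = 0.0159), the other 5 did not pass, and the median of the 6 was -0.14. None of the 21 tested inflammasome partners and effectors (median 0.10) and none of the 3 tested peptidoglycan recognition proteins and lysozymes (median 0.27) passed edgeR's test, with smallest adjusted p of 0.0838 and 0.233. Slc46a3, Cyld and Ciita each missed the threshold when any 1 of the 3 fl/fl libraries was left out, and Slc46a3 and Cyld also without Δ/Δ 3 (adjusted p = 0.0668 and 0.0641, edgeR). Over all 12 alternatives the log2 fold change was 0.33 to 0.44 for Slc46a3, -0.44 to -0.33 for Cyld and 0.40 to 0.50 for Ciita. DESeq2's Wald test gave 7 in NOD signalling, 3 inflammasome partners and 0 peptidoglycan recognition proteins and lysozymes. The share of all tested genes that passed it is not given here.

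**Figure D4:**
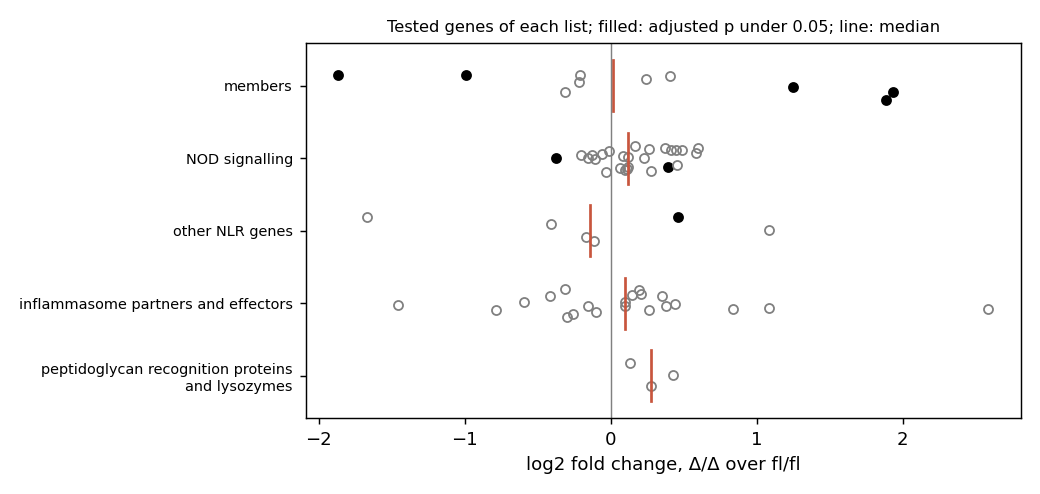
Log2 fold change of Δ/Δ over fl/fl libraries for the tested genes of each list, with filled points past an adjusted p of 0.05 and a line at the median. The members reach from -1.87 to 1.93, genes of NOD signalling from -0.37 to 0.60 and other NLR genes from -1.67 to 1.08. Inflammasome partners and effectors reach from -1.46 to 2.58, and peptidoglycan recognition proteins and lysozymes from 0.13 to 0.43. The 3 filled points of the other lists lie between -0.37 and 0.46.

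The libraries held 21693217 to 26788296 reads on genes. Jun, an intronless gene, was at 52.5 to 70.9 CPM in fl/fl and 44.3 to 60.5 CPM in Δ/Δ libraries (adjusted p = 0.345, edgeR), and Junb was at 274 to 413 and 110 to 212 CPM (log2 difference -1.02, adjusted p = 0.0729). Neither passed edgeR's test. Under the 12 alternatives Jun passed in 0 and Junb in 4, among them DESeq2's Wald test (adjusted p = 0.000119), no filter (0.0161) and without Δ/Δ 1 (0.0359). By quantitative RT-PCR, the study reports deletion of both genes in cDC1s and cDC2s sorted from spleen and in lymph-node cDC1s. It also measured both by this method in cells sorted from FLT3L cultures of these genotypes. All 14 cDC1 markers were tested, with Wdfy4, Irf8 and Rab7b the most abundant, and 5 were lower (Xcr1, Itgax, Snx22, Tlr3, Rab7b). Another 5 of the 14 had log2 differences above 0, none of which passed. The summed level of the 14 was 10035 to 10060 CPM in fl/fl and 8032 to 9314 CPM in Δ/Δ libraries. It was mostly Wdfy4 (log2 difference -0.28, adjusted p = 0.0876, edgeR) and Irf8 (0.04, adjusted p = 0.687), which did not pass. Markers of other cells moved as well. Of 11 cDC2 markers, all tested, 3 were higher (Cd4, Cd209a, Klf4), with a summed level of 228 to 378 CPM in fl/fl and 526 to 761 CPM in Δ/Δ libraries. Among the 11, 2 had log2 differences below 0, none of which passed. Of 15 monocyte and macrophage markers 10 were tested and 2 were higher (Ccr2, Adgre1), while 4 of the 10 had log2 differences below 0, none of which passed. Their sums of 717 to 978 and 1452 to 1822 CPM were mostly Ccr2, without which they were 55.4 to 68.3 and 60.4 to 97.5 CPM. Of 12 pDC markers 10 were tested, with Ccr9 higher and Il3ra lower, with sums of 268 to 288 and 277 to 334 CPM. Of 10 B cell markers 7 were tested and none passed, with sums of 29.0 to 39.7 and 26.1 to 81.7 CPM. Without fl/fl 1 or fl/fl 2, 0 of the cDC1 and 1 of the cDC2 markers passed. The part of these markers in the changes of Nod2, Nlrc4, Pglyrp1, Naip2 and Naip5 was not tested. In sorted populations fewer cells of a type and less RNA per cell cannot be told apart.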

How the data were processed

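RNA of sorted cDC1s was sequenced in 6 libraries, 3 fl/fl and 3 Δ/Δ, from a directional poly(A) kit in paired reads of 75 bases. The authors aligned the reads with STAR 2.6.1a to the mouse genome and deposited STAR's gene counts, without normalization or pooling. The submitters' processing notes also name bcl2fastq 2.19.1.403, RSEM, DESeq2 1.20.0 and GRCm38. Only uniquely mapped reads enter STAR's counts, so near-identical genes lose reads. STAR's rows for reads outside genes were dropped, and 79.1 to 79.7% of each library lay on genes.

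Counts were analysed in edgeR 4.0.16 with R 4.3.3 (glmQLFit and glmQLFTest on genotype, TMM scaling, genes kept by filterByExpr at min.count 10 and min.total.count 15), with Benjamini-Hochberg adjustment over 12894 genes. Calls needed both an adjusted p below 0.05 and an absolute log2 fold change of 1 or more. CPM values use the TMM factors. Floors of 3 reads per genotype cover counting error only. The scripts were tested on simulated data. Alternatives were DESeq2's size factors and Wald test, limma-voom 3.58.1, other filters, the replicate number as a block, and each library left out. Within genotypes, a chi-square of counts per degree of freedom was 5.02 to 7.85 (fl/fl) and 20.5 to 27.9 (Δ/Δ), so every pair differed by more than sampling noise and none was merged.

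The members and gene lists were chosen with earlier results of these data known. Text names all members, genes named Naip, Jun and Junb, list genes that passed the test (at most 8 a list), and the most abundant markers of a list. Names and coordinates came from GENCODE M21 and promoters from RefSeq.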

Additional observations from a re-analysis of the deposited data

How the results depend on the processing

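The numbers of members past an adjusted p of 0.05 (5) and called (4) stayed within 1.5 times under DESeq2's size factors, DESeq2's Wald test, limma-voom, no filter, the stricter filter and the replicate block. With the Naip reads summed to 1 row, 4 of 8 rows passed. With 1 library left out, 2 to 6 members passed and 1 to 5 were called. Except for the summed Naip rows (3.9%), the share of all tested genes that passed under these settings is not given here. The other member counts therefore cannot be set against a background. Without fl/fl 1 or fl/fl 2, Nod2, Nlrc4 and Pglyrp1 were lost with log2 fold changes of at least 1.13, while Naip2 and Naip5 passed under all 12 alternatives. The summed Naip reads ranged from -0.80 to -0.57 over the libraries left out. Nod1 turned to 0.08 and 0.10 without fl/fl 3 or Δ/Δ 1.

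Replicate numbers are shared by both genotypes, and deviations of same-numbered libraries correlated at 0.091, -0.148 and 0.200. Both fl/fl 1 and fl/fl 3 correlated best with the Δ/Δ library of the same number, while fl/fl 2 did so with Δ/Δ 1 (0.152). These values do not settle whether the numbers pair the libraries, and the main test did not use them. With the replicate block 5 members passed and 4 were called, as without it. Outside the members, Junb passed with the block (adjusted p = 0.037, edgeR) and Cyld did not (adjusted p = 0.0504).

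Counts in the lists moved more. The share of all tested genes that passed is not given for these other settings, so their counts cannot be set against a background. DESeq2's Wald test gave 7 NOD signalling genes, 2 other NLR genes, 3 inflammasome partners, 8 cDC1, 5 cDC2, 2 neutrophil, 4 pDC and 1 B cell markers, and the replicate block gave 1 inflammasome partner, 6 cDC2, 2 neutrophil and 1 B cell markers. With 1 library left out the counts ran from 0 to 9 for NOD signalling, 0 to 2 for other NLR genes, 0 to 4 for inflammasome partners, 0 to 1 for peptidoglycan recognition proteins and lysozymes, 0 to 7 for cDC1, 1 to 4 for cDC2, 0 to 1 for neutrophil, 0 to 3 for monocyte and macrophage, 1 to 4 for pDC and 0 to 1 for B cell markers. Cd79b, at -0.53 to 0.20 over the libraries left out, turned positive without fl/fl 1 (0.04), fl/fl 3 (0.08), Δ/Δ 1 (0.20) or Δ/Δ 3 (0.14), and Ms4a1, at -0.45 to 0.55, turned negative under limma-voom (-0.082), the replicate block (-0.012) and without Δ/Δ 2 (-0.45). With 3 libraries a genotype and 11 to 55 reads, a change of Nod1 could not be resolved.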
